A study of Mus musculus with 22 samples.

Results

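Horizontal basal cells (HBCs) of the mouse olfactory epithelium (OE) are described here from single-cell RNA-seq (scRNA-seq) of 8 mice, in which 977 of 25185 kept cells, or 3.88%, were chosen by a rule on their own counts. A cell was a member when its unique molecular identifiers (UMIs, each standing for 1 captured RNA molecule) held at least 3 of the basal keratins Krt5, Krt14 and Krt15 together. It also had to hold under 0.5% of its UMIs in the sustentacular genes Cyp2g1, Cyp2a5 and Sec14l3, under 5% in the neutrophil genes S100a8 and S100a9, and under 10% in the hemoglobin genes Hba-a1, Hba-a2, Hbb-bs and Hbb-bt. Kept cells had more than 500 detected genes, more than 1500 UMIs and under 20% mitochondrial UMIs, which left 25185 of 32293 barcodes. Since these counts chose the members, the levels of the rule's genes and the difference between HBCs and other cells are given as descriptions without a test.

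HBCs lie flat on the basal lamina of the OE, are anchored to it by hemidesmosomes, and serve as reserve stem cells that rarely divide in the undamaged tissue. The transcription factor TRP63 holds them in the basal state, and injury is known to bring its loss and the entry of HBCs into the olfactory sensory neuron (OSN) lineage, which runs from globose basal cells (GBCs) through immature (iOSNs) to mature neurons (mOSNs), as well as into supporting cells. UPF3B is a branch-specific factor of nonsense-mediated RNA decay (NMD), the pathway that degrades RNAs with a stop codon read as premature, and its gene is X-linked.

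The mice were adult males of strain C57BL/6, named C57BL/6J in the study's methods, 4 wild type (WT, Upf3b+/y) and 4 Upf3b-null (Upf3b-/y, given as Upf3b-/- in the sample annotation), in which Upf3b is lost from every cell and not from HBCs alone. Whole OE was dissected and dissociated, dead cells were removed, and each mouse gave 1 10x Chromium library of RNA 3′ ends. The study's methods mention independent experiments, but no source used here says which library came from which, so the p-values below measure only the spread between mice. The comparison asked whether loss of UPF3B changes how frequent HBCs are and which genes they use.

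The WT mice gave 152, 65, 163 and 148 HBCs and the Upf3b-null mice 132, 41, 19 and 257, in the order of replicates 1 to 4, from 1832, 1444, 2791 and 3080 kept WT cells and 7157, 1334, 1710 and 5837 kept Upf3b-null cells. The members held 3516897 UMIs in all, and the median per member ran from 2334 in WT 2 to 3878 in WT 3. Upf3b-null 2 and Upf3b-null 3 thus rest on few cells. No barcode was shared between HBCs of different libraries, and 39 member barcodes were also seen among kept cells of another library. A further 27 cells with enough keratin UMIs were left out by the sustentacular limit and 30 by the blood limits. At the edge of the rule, 150 members held exactly 3 keratin UMIs and 170 otherwise qualifying cells held 2. Trp63 had a median over libraries of 622 CPM (UMIs of a gene summed over the cells of a class in 1 library and scaled to a common total) in the former and 418 CPM in the latter, so cells just outside the rule carried the defining marker as well.

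Libraries fell into sets that, by mOSN and sustentacular sums, each held mice of both genotypes. From the summed counts of mOSNs, WT 3, WT 4 and Upf3b-null 4 stood apart, with correlations of log expression of 0.947 to 0.965 among themselves, 0.903 to 0.983 among the other 5 libraries, and 0.788 to 0.899 between the sets. Sustentacular sums gave the same division, whereas GBC sums set only WT 3 apart, with correlations of 0.635 to 0.941 among the 3 libraries, 0.796 to 0.905 among the other 5 and 0.42 to 0.858 between. HBC sums followed it in part, with 0.834 to 0.934 within the 3 libraries, 0.714 to 0.901 within the other 5 and 0.637 to 0.821 between, although clustering of the HBC sums set only Upf3b-null 3, the library of 19 members, apart from the rest. The set holds 2 WT mice and 1 Upf3b-null mouse and is named in no annotation.

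The defining markers were present in every library. Krt14, a basal keratin that polymerises with KRT5, ran from 555 CPM in Upf3b-null 4 to 1444 CPM in Upf3b-null 2, and Krt5 from 705 to 1179 CPM in the same libraries. Trp63, which the rule did not use, was at 503, 577, 801 and 638 CPM in the WT mice and at 562, 709, 726 and 272 CPM in the Upf3b-null mice, against medians of 1.5 CPM in sustentacular cells, 0.5 CPM in GBCs and 3.6 CPM in mOSNs. A Trp63 UMI was found in 55.3% (Upf3b-null 4) to 89.6% (WT 3) of members. With each cell thinned to 1500 UMIs the shares were 54%, 60.0%, 71.2% and 64.9% in WT HBCs and 50.8%, 56.1%, 79.0% and 37.0% in Upf3b-null HBCs, while mOSNs, which should lack the gene, reached at most 3.53%. Trp63 was thus above that background in HBCs of every library, and least frequent in Upf3b-null 4.

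Genes that were higher in HBCs in all 8 libraries were ranked by their lowest fold over libraries against all other kept cells of the same library, after adding 20 CPM to each level. After the rule's own Krt5 and Krt14 the order began with Trp63, with a lowest log2 fold of 3.28, and Krt17, a keratin of stressed and wounded epithelia, with 3.23. Krt17 was at 360 to 1141 CPM in HBCs and at medians of 2.8, 4.8 and 4.8 CPM in sustentacular cells, GBCs and mOSNs. F3, which encodes tissue factor, the trigger of clotting, followed at 3.12 with 657 to 1713 CPM, then Ccdc3, a secreted protein, at 3.02 and Fxyd3, a regulator of the sodium pump, at 2.99. Slc6a6, the taurine transporter, was among the most abundant of these genes, with a median of 1892 CPM.

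Genes of attachment to the basal lamina stood lower in this order but were also higher in HBCs. Col17a1, the transmembrane collagen of hemidesmosomes, was at 124 to 207 CPM in HBCs and at medians of 0.7, 0.0 and 1.2 CPM in sustentacular cells, GBCs and mOSNs. Itgb4, the hemidesmosomal integrin subunit, ran from 91.8 to 151 CPM, Lamb3, a chain of laminin-332, from 90.9 to 282 CPM, and the laminin receptor gene Bcam from 144 to 362 CPM. Icam1, a surface protein long used to sort HBCs, was low at 17.3 to 48.4 CPM. Each of these genes was lower in all 3 comparison classes than in HBCs. Perp, a desmosomal protein and TRP63 target, and Trim29, found in basal cells of many epithelia, had medians of 401 and 121.5 CPM in HBCs.

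A second group encodes detoxifying enzymes, carriers and secreted factors. Adh7 and Aldh3a1, which oxidise retinol, ethanol and aldehydes, had medians of 562 and 329.5 CPM against at most 5.5 and 2.7 CPM as the median of any of the comparison classes. Aqp3, a water and glycerol channel, was at 719 to 3648 CPM and was shared with sustentacular cells, whose median was 910.2 CPM. Igfbp2, Efemp1, Ltbp4 and Sfrp1, secreted binders of IGF, matrix, latent TGF-beta and WNT, had medians of 607, 354, 150.5 and 280.4 CPM. Ccnd2, a D-type cyclin, was at 354 to 657 CPM and had medians of 5.0, 2.1 and 13.5 CPM in sustentacular cells, GBCs and mOSNs. Outside the 25 leading genes, Ccl20, a chemokine for CCR6-bearing immune cells, ran from 94.7 CPM to 1067 CPM and Defb1, a beta-defensin, from 70.9 to 219 CPM.

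**Figure D1:**
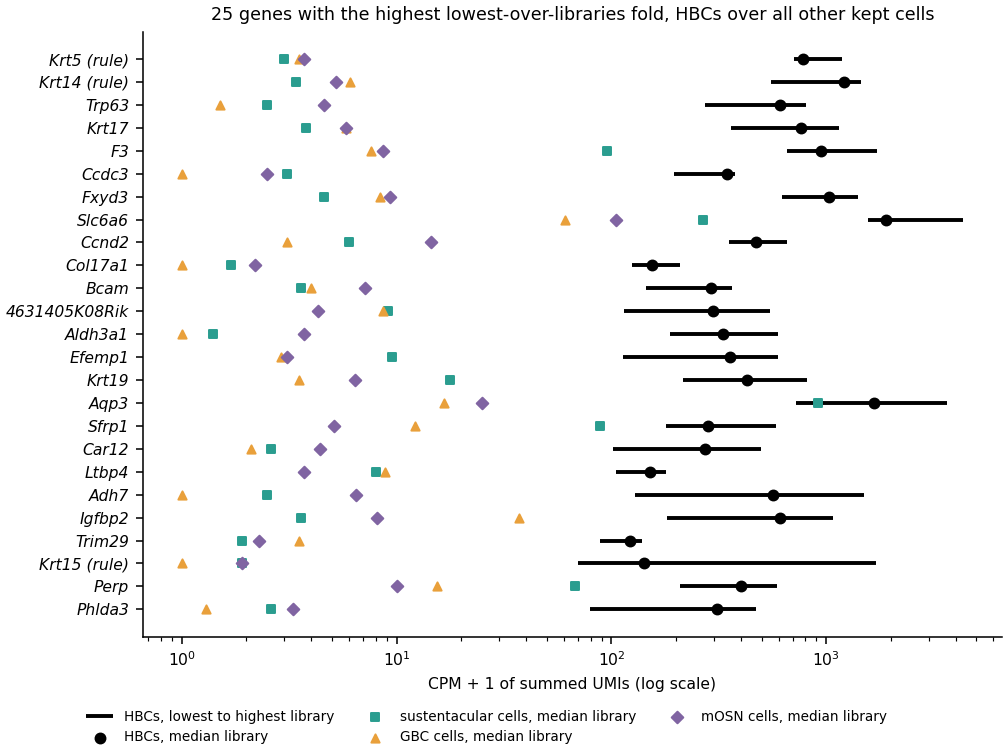
Levels in CPM + 1 on a log axis of the 25 genes with the highest lowest-over-libraries fold of HBCs over all other kept cells; black lines span the 8 libraries, black dots are their median, and coloured markers are medians in sustentacular cells, GBCs and mOSNs. Trp63, Krt17 and Col17a1 lie far from the other classes, while Aqp3 reached 910.2 CPM in sustentacular cells; genes marked as rule chose the members.

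Receptors and effectors of signalling were also read in HBCs. Of the Notch pathway, in which contact with a ligand-bearing neighbour releases a transcriptional activator, Notch1 was at 24.2 to 129 CPM, the ligand Jag2 at 17.1 to 56.4 CPM, and Dlk2, a non-canonical ligand, at 37.9 to 256 CPM with medians of 0.6 CPM or less in the comparison classes. Hes1, a Notch effector, was at 276.5 to 916 CPM, a range that overlapped that of sustentacular cells (358 to 736 CPM). Of the Hippo pathway, which limits growth through the coactivator YAP, Yap1 had a median of 66.9 CPM in HBCs against 32.2 CPM in sustentacular cells, and the scaffold Ajuba a median of 53.5 against 4.2 CPM. Egfr, the epidermal growth factor receptor, was at 34.6 to 94.0 CPM and had medians of 14.6, 0.0 and 1.3 CPM in sustentacular cells, GBCs and mOSNs. Lgr5, a receptor gene of active progenitors, was at 0.0 to 3.8 CPM in HBCs, against a median of 11.7 CPM in GBCs.

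The keratins did not vary together across mice. Krt15 made up 41.6%, 31.7%, 7.03% and 4.76% of the keratin UMIs of WT HBCs and 7.49%, 4.06%, 2.96% and 57.5% of those of Upf3b-null HBCs. WT 1, WT 2 and Upf3b-null 4 were thus high and the other 5 libraries low, a division that follows neither the genotype nor the library sets. Reg3g, a secreted lectin that kills Gram-positive bacteria, followed the same order in part, with 6369, 2709, 294 and 98.2 CPM in WT HBCs and 683, 162, 709 and 4923 CPM in Upf3b-null HBCs. WFDC2, a secreted protease inhibitor of airway epithelium, had its 3 highest levels in the same libraries, since Wfdc2 was at 2500.0, 1348 and 2229 CPM there and at most 586 CPM in the rest.

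Members with Krt15 but no Krt14 UMI, a division made after the data were seen from genes of the rule, are set beside the reverse group as a description. In 98 members with at least 3 Krt15 UMIs and no Krt14 UMI, Trp63 summed to 156.5 CPM, Reg3g to 15102 CPM and Wfdc2 to 4835 CPM. The reverse group, 349 members with at least 3 Krt14 UMIs and no Krt15 UMI, held 665 CPM of Trp63, 543.5 CPM of Reg3g and 410.3 CPM of Wfdc2. Of the 98 cells, 69 came from Upf3b-null 4 and 17 from WT 1, so the contrast rests mainly on 2 libraries. Within WT 1 alone Trp63 was at 155 CPM in the former and 608.5 CPM in the latter, and within Upf3b-null 4 at 126 and 370.4 CPM. The other libraries held at most 6 such cells each, and in WT 4 and Upf3b-null 2, with 1 each, Trp63 was higher in that cell (871 and 970.4 CPM) than in the reverse group (746 and 580 CPM). Krt6a, a keratin of wounded and squamous epithelium, was at 638 CPM in the 98 cells, all of it from Upf3b-null 4, and at 0.0 CPM in the 349.

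**Figure D2:**
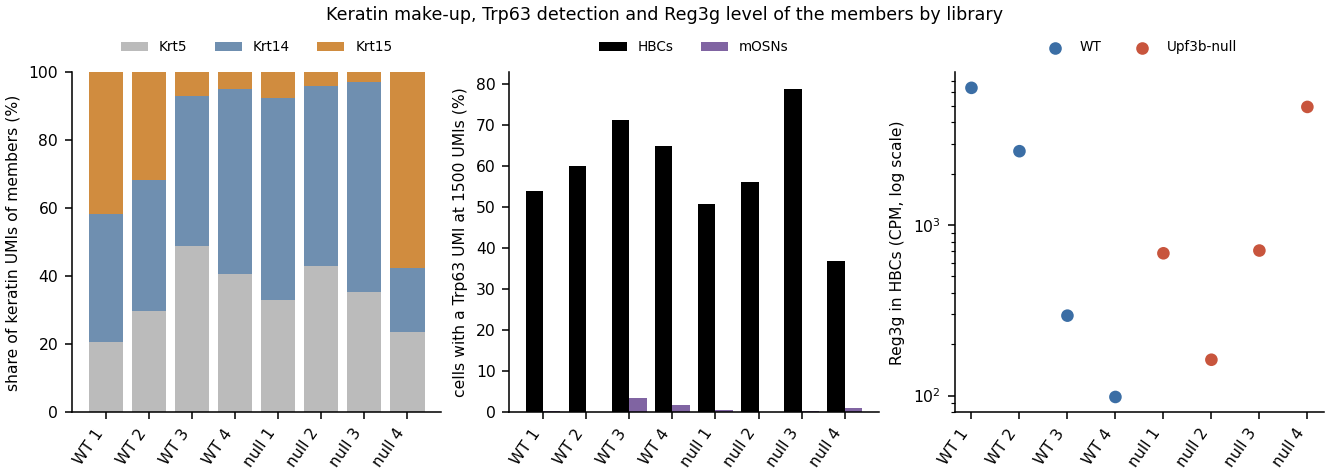
Left, the shares of Krt5, Krt14 and Krt15 among the keratin UMIs of members in percent; middle, the percent of HBCs and mOSNs with a Trp63 UMI after thinning to 1500 UMIs; right, Reg3g in HBCs in CPM on a log axis, each for the 8 libraries. Krt15 took 57.5% of keratin UMIs in Upf3b-null 4, where Trp63 was detected in 37.0% of HBCs, the lowest of the 8.

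Clustering of the members gave 8 sub-clusters, described here by their leading genes and left without cell type names. Sub-cluster 1, with 307 cells, was led by Nrcam, Sema3d, Fam101b, Col23a1 and Basp1 and came to 239 cells from WT 3 and WT 4, 61 from Upf3b-null 4 and 7 from the other libraries. At least 3 UMIs of the neuronal genes Omp, Gap43, Gng8 and Stmn2 were in 55.7% of its cells. Sub-cluster 2, with 165 cells, was led by Ctla2a, Abca4, Pf4, Ppbp and Scgb1c1, and sub-cluster 3, with 164 cells, by Serpina3n, Synpr, Ccl20, Mgp and Capg. In sub-cluster 2, Ctla2a and the platelet genes Pf4 and Ppbp were over 20 CPM in 1 library alone. Sub-clusters 2 and 3 drew every cell from the 5 libraries outside the set that stood apart. All 3 held Trp63, at 839, 886 and 493.5 CPM, and Krt15 was 131 CPM in sub-cluster 2 and 1266 CPM in sub-cluster 3. Bpifa1 and Reg3g were also lower in sub-cluster 2 (298 and 151.5 CPM) than in sub-cluster 3 (4294.5 and 1513 CPM). Since the members' own genes made the clusters, none of these contrasts is tested.

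Among the smaller sub-clusters, several were led by genes of other cell types. Sub-cluster 4, with 118 cells of which 113 were from Upf3b-null 4, was led by Gm14744, BC051076, Obp1b, Mup5 and Lcn11, and carried 14794 CPM of the odorant-binding protein Obp1a, a product of nasal glands. Sub-cluster 5, with 108 cells from all 8 libraries, was led by Avp, Gap43, Jakmip1, Olfr794 and Stoml3, which include neuronal genes. Avp and Olfr794 were over 20 CPM in 1 of those libraries alone, whereas 77.8% of the cells had at least 3 UMIs of the 4 neuronal genes. Sub-cluster 6, with 74 cells, 59 of them from Upf3b-null 4, was led by Krt6a, Ltf, Reg3g, Muc5ac and Krt4, which include a mucin and keratins of squamous epithelium, with 3049 CPM of Krt15 and 108 CPM of Trp63. Its leading genes go against the label HBC, and Krt6a and Muc5ac were over 20 CPM in 1 library alone. Sub-cluster 7, with 34 cells, was led by Ccl5, Cenpf, Top2a, Hist1h2ap and Lockd, mostly genes of dividing cells, and had Mki67 at 301 CPM. Of these, Ccl5 was over 20 CPM in 1 library alone. Sub-cluster 8, with 7 cells, was led by Coch, Stap1, Moxd1, Gm933 and Galnt13 and carried Ascl3 at 593 CPM, a transcription factor of a microvillous cell type.

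**Figure D3:**
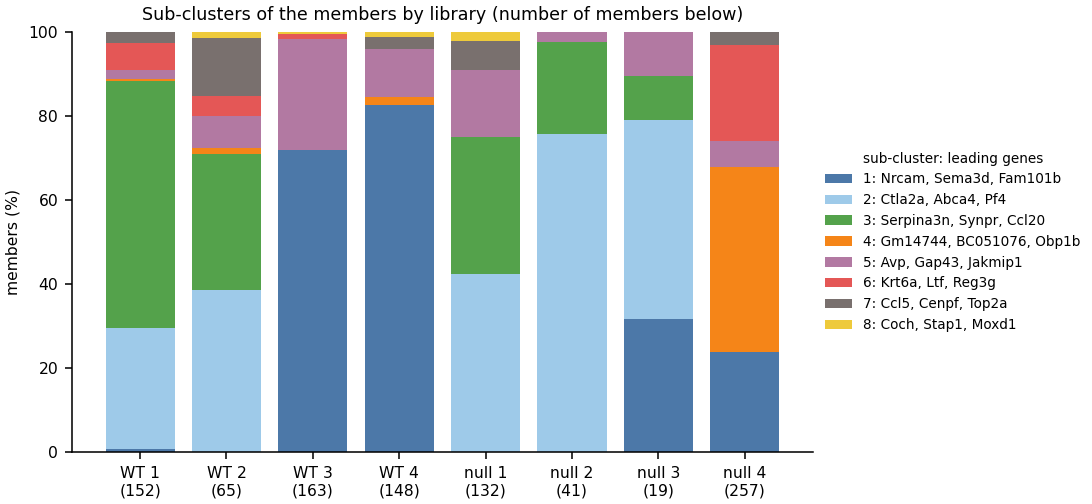
Percent of the HBCs of each library in the 8 sub-clusters, with the number of members under each bar and the 3 leading genes of each sub-cluster in the key. Sub-cluster 1 holds 71.8% and 82.4% of members in WT 3 and WT 4 and none in WT 2, Upf3b-null 1 and Upf3b-null 2, while sub-cluster 4 holds 44.0% in Upf3b-null 4.

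Markers of other cell types moved with these libraries. The 12 OSN markers, all of them detected and led by Gng13, summed to 353.5, 1284, 4176 and 2992 CPM in WT HBCs and to 2605.5, 700.5, 2731 and 2519 CPM in Upf3b-null HBCs, against 13952 to 28901 CPM in mOSNs. At least 3 UMIs of the 4 neuronal genes were in 1.97%, 6.15%, 79.8% and 46.6% of WT members and in 17.4%, 4.88%, 47.4% and 31.5% of Upf3b-null members. The 12 gland and duct markers, led by Obp1a, reached 14936 CPM in Upf3b-null 4 and at most 1822.5 CPM elsewhere, and the 11 squamous markers, with Ivl at 0, 1098 CPM there and at most 121 CPM elsewhere. Neutrophil markers ran from 171 CPM in Upf3b-null 2 to 8296 and 9177 CPM in Upf3b-null 3 and Upf3b-null 4, and erythroid markers from 59.8 to 19427 CPM, the last in Upf3b-null 3. The 9 sustentacular markers summed to 4375 to 10398 CPM in HBCs, most of it Cbr2, a carbonyl reductase with a median of 5334 CPM in HBCs and 5631 CPM in sustentacular cells. Stromal markers, led by Dcn, stayed between 194 and 328 CPM and endothelial markers between 0.0 and 112 CPM in HBCs. The GBC markers summed to 51.9 to 240.1 CPM, with Neurod2 at 0, and the microvillous markers to 8.5 to 56.8 CPM, with Chat at 0. The part of these RNAs in the results below was not tested beyond the alternatives given there.

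HBCs were a smaller share of all kept cells in Upf3b-null mice. They made up 8.30%, 4.50%, 5.84% and 4.81% of kept cells in WT mice, a mean of 5.86% ± 1.72 (SD, n = 4), and 1.84%, 3.07%, 1.11% and 4.40% in Upf3b-null mice, a mean of 2.61% ± 1.44 (SD, n = 4). The lowest WT mouse lay above the highest Upf3b-null mouse, and the difference of -3.25 percentage points had an exact two-sided permutation p = 0.0286, the smallest that 4 mice against 4 allow, or 0.114 after Benjamini-Hochberg adjustment over the 4 share tests. Blood cells were 19.3%, 25.7%, 24.1% and 30.8% of kept cells in WT and 28.2%, 22.6%, 59.0% and 58.4% in Upf3b-null mice and stand in this denominator. They were non-members at or over the rule's S100a8 and S100a9 limit or its hemoglobin limit, or with at least 3 leukocyte UMIs. Members were never counted as blood, whatever their leukocyte UMIs. The part of this exemption in the shares of cells other than blood was not tested.

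With blood cells taken out of the denominator the groups overlapped. The HBC share of the other kept cells was 10.3%, 6.06%, 7.70% and 6.95% in WT and 2.57%, 3.97%, 2.71% and 10.6% in Upf3b-null mice, where Upf3b-null 4 was the highest of all 8 under this rule. The difference was -2.79 points (exact permutation p = 0.257, adjusted 0.343). Of the OSN lineage, taken as HBCs, GBCs, iOSNs and mOSNs together, HBCs were 13.4%, 7.69%, 8.13% and 9.4% in WT and 3.33%, 4.63%, 2.30% and 11.4% in Upf3b-null mice, a difference of -4.24 points (exact permutation p = 0.143, adjusted 0.286). These shares move with the choice of cells. With at least 1 Trp63 UMI required of members the share of cells other than blood was 5.85% in Upf3b-null 4, within the WT range of 4.29% to 7.24%, and with Krt5 and Krt14 alone counted, chosen after the data were seen, it was 6.80%, within 5.03% to 8.79% (differences of -2.79 and -3.00 points, exact permutation p = 0.0571 each). Cells that carried markers of an OSN-lineage class and also at least 3 leukocyte UMIs counted as blood in the former share and as lineage in the latter, and they numbered 22, 19, 327 and 231 in WT and 293, 21, 295 and 594 in Upf3b-null mice. In alternatives also added later, they left, when never counted as blood, a difference of -3.07 points (exact permutation p = 0.143) with Upf3b-null 4 at 8.50% and WT 1 at 10.1%, and when left out of the lineage they gave -3.72 points (p = 0.314). Permutation within the library sets was added after the data were seen. The difference in the share of all kept cells was then -2.65 points (exact permutation p = 0.0333, the smallest that 30 splits allow). It was -0.912 points in cells other than blood and -2.25 points in the lineage (exact permutation p = 0.667 and 0.4). Upf3b-null 4 decided the latter pair, since without it the differences were -4.66 and -6.23 points and the groups did not overlap (exact permutation p = 0.0286 in each, again the smallest possible). Without members that held 3 or more OSN marker UMIs, the difference in the share of all kept cells was -2.01 points (exact permutation p = 0.286).

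**Figure D4:**
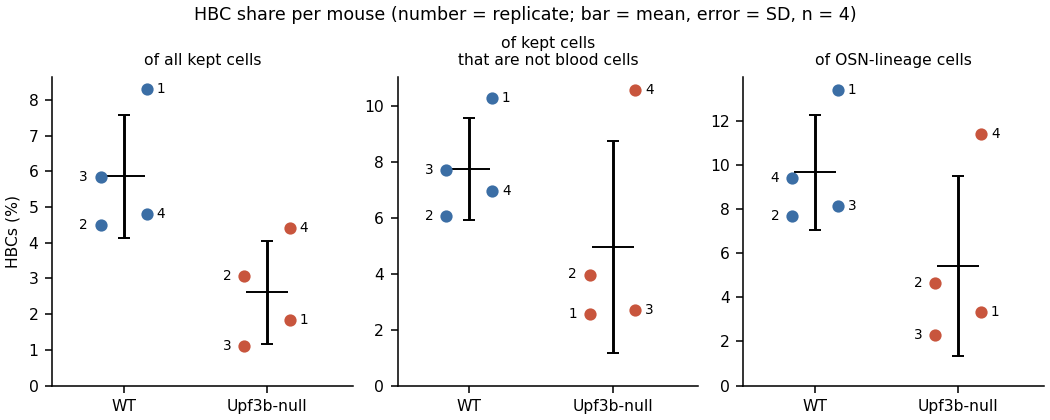
HBCs in percent of all kept cells (left), of kept cells that are not blood cells (middle) and of OSN-lineage cells (right) for the 4 WT and 4 Upf3b-null mice, numbered by replicate; the bar is the mean and the error bar 1 SD. WT and Upf3b-null mice are separate in the left panel alone, and Upf3b-null 4 lies at 10.6% and 11.4% in the other panels.

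The share of HBCs with cell cycle RNA did not pass the test between genotypes. After thinning to 1500 UMIs, at least 2 UMIs of 41 S and G2/M phase genes were found in 9.21%, 9.23%, 14.7% and 12.2% of WT HBCs and in 10.6%, 2.44%, 5.26% and 26.9% of Upf3b-null HBCs, a difference of -0.0427 points (exact permutation p = 1.0). Without thinning the shares were 15.1%, 9.23%, 45.4% and 36.5% in WT and 28%, 2.44%, 10.5% and 56.4% in Upf3b-null mice. Postmitotic mOSNs measured in the same way gave 4.87%, 3.12%, 32.7% and 14.3% in WT and 9.71%, 4.16%, 18.1% and 30.7% in Upf3b-null mice. HBCs were at or under that background in 5 of 8 libraries, so cycling of HBCs is not read from these shares in WT 3, WT 4 and Upf3b-null 2 to 4. GBCs, which hold the dividing progenitors, gave 33.3% to 62.7%.

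Upf3b itself fell in HBCs of the null mice, and it was the single gene called. UMIs of Upf3b (ENSMUSG00000036572, GRCm38 chrX:37091678-37110322, minus strand, protein coding) numbered 24, 5, 75 and 58 in WT HBCs and 0, 0, 0 and 2 in Upf3b-null HBCs. In CPM on effective library sizes (TMM, the scale used for genotype values from here on) that was 59.6, 32.0, 113 and 105 in WT and 0.0, 0.0, 0.0 and 2.13 in Upf3b-null mice. No WT mouse overlapped a null mouse. The log2 fold change of edgeR's quasi-likelihood test was -5.68 with SE 0.73 and Benjamini-Hochberg adjusted p = 0.00147, and the ratio of summed counts was 0.0141 with a 95% interval of 0.00169 to 0.0516 that covers counting error only. At their depth 0 UMIs allow up to 7.26, 25.6 and 51.9 CPM (plain CPM) in Upf3b-null 1, 2 and 3, so in Upf3b-null 3 the absence is not shown beyond the lowest WT level.

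Of 5847 genes tested on UMI sums per mouse, 1 (0.0171%) passed the adjusted threshold of 0.05 by edgeR and none was higher in Upf3b-null HBCs (0.0%). Without the filter on low counts, 28 of 16996 passed by edgeR (0.165%) and 27 of them were higher in Upf3b-null HBCs (0.159%), while DESeq2 on the same 16996 genes called Upf3b alone (0.00588%). An unadjusted p under 0.05 was reached by 43 genes (0.735%), and the groups of 4 did not overlap for 26 genes higher (0.445%) and 32 genes lower (0.547%) in Upf3b-null mice. Without any genotype difference, a share of 0.05 would reach that p and 1 of 70 splits of the mice gives each order. All of these shares lay below those levels, so an order without overlap does not by itself mark a gene. The median log2 fold change over all tested genes was -0.01.

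The 10 genes with the smallest p after Upf3b had an adjusted p of 0.999 each by edgeR, and 9 of them are given as values. Per3, a clock gene, was at 258, 192, 273 and 229 CPM in WT HBCs and at 147, 170.0, 92.3 and 73.5 CPM in Upf3b-null HBCs, without overlap (log2 fold change -1.0). Atp6v1c2, a subunit of the proton pump of vesicles, had 32.3, 32.0, 31.7 and 23.4 CPM against 10.3, 18.9, 18.5 and 5.32 CPM (-1.67). Msrb1, a methionine sulfoxide reductase, and Prom1, the membrane protein prominin, were above WT in all 4 Upf3b-null mice, with log2 fold changes of 0.99 and 1.14, and Prom1 had 0.54 without Upf3b-null 4. Lcn2, an iron-siderophore binder of innate defence, had a log2 fold change of 1.20 and overlapped between groups, as did the uncharacterised RNA 1600020E01Rik with 1.37. Lcn2 had 0.67 without Upf3b-null 4 and 0.36 in the 5 libraries that stood together.

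Phpt1, Hypk and Rps27rt shared a pattern across mice that set Upf3b-null 4 apart from the other nulls. Phpt1, a protein histidine phosphatase, was at 39.7, 38.4, 43.7 and 61.3 CPM in WT HBCs and at 224, 151, 222 and 26.6 CPM in Upf3b-null HBCs, with 3 nulls above every WT mouse and Upf3b-null 4 below. Hypk, a chaperone of nascent chains, was at 37.2, 25.6, 39.2 and 37.9 CPM in HBCs of WT and 191, 104, 129 and 23.4 CPM in those of Upf3b-null mice. Rps27rt, a retrotransposed copy of a ribosomal protein gene that can share reads with its parent, was at 293, 320.3, 490.2 and 263 CPM against 1173, 1124, 794 and 284 CPM. Their log2 fold changes were 1.63, 1.57 and 1.30 over all 8 mice, and Hypk had 0.88 without Upf3b-null 1. In the 5 libraries that stood together they were 2.36, 2.19 and 1.79, given without a test because the genes were grouped by the departure of Upf3b-null 4, which that subset leaves out. With the library set as a term over all 8 mice none of the 3 passed, at 1.02, 1.0 and 1.01 (adjusted p = 1.0 each by edgeR). In mOSNs of the same libraries Phpt1 was at 21.3 and 15.7 plain CPM in WT 1 and WT 2. It was at 79.2, 21.4 and 49.2 plain CPM in Upf3b-null 1 to 3, with Upf3b-null 2 close to WT 1.

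No gene of HBC attachment passed the test in either direction. Of 30 listed, 26 were tested, with 14 log2 fold changes above 0, 12 below 0 and a median of 0.02, which ran from -0.12 without WT 4 to 0.06 without WT 1. Trp63 was at 583, 628, 829.6 and 633 CPM in WT and at 598, 784, 776 and 306 CPM in Upf3b-null HBCs (log2 fold change -0.14), where Upf3b-null 4 was the lowest of 8. Aqp3 had a log2 fold change of 0.30, the tetraspanin Cd9 of 0.19 and Perp of 0.04. The smallest p in the list belonged to Lama5, a laminin chain of basement membranes, at -0.60, and Cdh3, the basal P-cadherin, at 0.45.

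Of 27 genes of HBC activation and wounding 7 were tested, none passed, and the median was -0.09. It was -0.82 without Upf3b-null 4, 0.40 without WT 1 and -1.55 over 3 genes in the 5 libraries that stood together. Without the filter on low counts 26 were tested, the median was 1.44 and 4 were called by edgeR (Il1rn, Sprr1a, Hopx and Krt6b), beside 0.165% of all genes in that fit, whereas DESeq2 called none of the 26 at a median of 1.43. Squamous markers summed to 1098 CPM in HBCs of Upf3b-null 4 and to at most 121 CPM elsewhere (plain CPM). Sub-cluster 6, led by Krt6a, drew 59 of its 74 cells from that mouse. The part of these cells in the 4 calls was not tested. Krt17 had a log2 fold change of 0.36. Anxa1 and Anxa3, phospholipid binders of stressed epithelium, varied widely among mice, Anxa1 from 32.5 to 638 CPM in WT and from 28.3 to 442 CPM in Upf3b-null HBCs (-0.17), and Anxa3 gave -0.49. Sox9, a factor of gland and duct cells, gave -0.09. Emp1, a membrane protein, gave 1.00 through Upf3b-null 4, which had 200.2 CPM against at most 76.9 CPM in any other mouse. Il33, an alarmin kept in the nucleus of barrier cells, had 49.6, 25.6, 45.3 and 50.5 CPM in WT and 15.5, 18.9, 0.0 and 46.9 CPM in Upf3b-null HBCs (-0.66, adjusted p = 0.999 by edgeR).

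Signalling lists gave the same count of 0 called genes. In the Notch list 15 of 33 were tested with a median of -0.17, which was -0.06 without WT 3, -0.30 without Upf3b-null 4 and 0.13 over 6 genes in the 5 libraries. Hes1 had 0.51, Hey1 0.02, Dlk2 0.34, Hes6 0.07 and the coactivator Maml3 -0.81. In the Hippo list 20 of 29 were tested with a median of -0.08, which was -0.43 without Upf3b-null 4, 0.10 without WT 3 and 0.26 over 6 genes in the 5 libraries, and Amotl1, an angiomotin that binds YAP, had the smallest p at -0.79. It was at 457 and 404 CPM in WT 3 and WT 4 and at 103 to 198 CPM in the other 6 mice, with Upf3b-null 4 at 178 CPM, and its log2 fold change was 0.31 in the 5 libraries. Tead1, a DNA-binding partner of YAP, had -0.42, Yap1 -0.001 and the target Cyr61 -0.08. In the list of growth factor receptors and their feedback inhibitors 13 of 21 were tested, 12 had a log2 fold change below 0 and the median was -0.27, which was -0.08 without Upf3b-null 1. The feedback phosphatase Dusp6 had 69.5, 64.1, 55.8 and 41.5 CPM in WT and 49.0, 56.7, 36.9 and 28.8 CPM in Upf3b-null mice (-0.47), and Spred1, Spry2, Fgfr1, Fgfr2 and Igf1r had -0.41, -0.15, -0.43, -0.11 and -0.10. None of the 13 passed, and they are not independent of one another within a mouse.

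Defence genes varied widely among mice of each genotype, and none was called over all 8 mice in the main fit, with the filter on low counts. In the epithelial defence list 17 of 39 were tested and the median was -0.18, which was 0.58 without WT 1 and -0.81 without Upf3b-null 4. In the 5 libraries that stood together, a fit added after the data were seen, it was -1.27 over 14 genes. There Wfdc2, Cxcl17 and Msln were called by edgeR. In that fit 14 of all 2775 genes (0.505%) were called, 4 of them higher in Upf3b-null HBCs (0.144%). Members with at least 3 Krt15 UMIs and no Krt14 UMI were 11.2% and 9.2% of HBCs in WT 1 and WT 2. They were 0.8%, 2.4% and 0.0% in Upf3b-null 1 to 3. Over all libraries such members held 4835, 285 and 322 CPM of the 3 called genes in that order. The reverse group held 410.3, 18.2 and 22.3 CPM (plain CPM). The part of this difference in the 3 calls was not tested. Bpifa1, an airway surface protein, ran from 869 to 7724 CPM in WT and from 359 to 3491 CPM in Upf3b-null HBCs (-0.98). Reg3g had -0.56, Wfdc2 -0.26 and Wfdc18 0.49. Over the alternatives these changed sign, from -3.19 to 0.69, from -2.03 to 0.59 and from -0.89 to 1.17 in that order. For 28 neutrophil granule genes, of which 11 were tested and none called, the median of 1.20 was decided by Upf3b-null 4, since it was -0.32 without that mouse and -0.56 in the 5 libraries. Without the filter on low counts 1 of 25 genes of this list was called by edgeR, BC100530, beside 0.165% of all genes, and DESeq2 called none of the 25 at a median of 1.49. Ngp and Camp, granule proteins of immature neutrophils, were at 34.8 to 213 and 19.2 to 262 CPM in WT HBCs, at 137, 18.9, 923 and 434 CPM (Ngp) and 152, 18.9, 979 and 563 CPM (Camp) in Upf3b-null HBCs, so Upf3b-null 3 and 4 lay above every WT mouse and Upf3b-null 2 below. Their log2 fold changes were 1.70 and 1.68. Ltf was at 2707 CPM in Upf3b-null 4 and at most 18.5 CPM in the other nulls, and Lyz2 had -0.18. Neutrophil RNA was also high in other cells of these mice, as in mOSNs with 7305.5 and 8819.8 plain CPM of neutrophil markers in Upf3b-null 3 and 4; the part of that RNA in these values was not tested.

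Antigen presentation and interferon genes gave a median of 0.32 over 21 tested of 51, with none called. The median was 0.08 without Upf3b-null 3, 0.16 without WT 3 or WT 4, 0.57 without WT 1, 0.10 with the library set as a term and -0.21 in the 5 libraries. Ifitm3, Ifitm1 and Ifitm2, which block viral entry, had 0.18, 0.01 and 0.39. Cd74, the invariant chain of MHC class II, had 1.04 through Upf3b-null 3 at 1718 CPM. The 5 B and T cell markers, led by Cd79b and with the T cell genes Cd3e and Cd3g at 0 in HBCs, summed to 7.3, 0.0, 380.2 and 14.2 plain CPM in Upf3b-null HBCs. Their mean in WT HBCs was 20.4 plain CPM. In mOSNs they summed to 141.2 plain CPM in Upf3b-null 3 and to at most 44.6 plain CPM elsewhere. The part of B and T cell RNA in the values of the antigen presentation list was not tested. Isg15, a ubiquitin-like interferon product, had 9.93, 12.8, 6.03 and 23.4 CPM in WT and 28.4, 18.9, 148 and 29.8 CPM in Upf3b-null HBCs (log2 fold change 1.57, unadjusted p = 0.0191 and adjusted p = 0.999 by edgeR), and H2-T23, a non-classical MHC class I gene, had 0.805.

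Genes of the NMD pathway other than Upf3b did not pass. Of 14 NMD factors 10 were tested, with Upf3b the one called and a median of 0.08, which ran from -0.09 without Upf3b-null 4 to 0.17 without Upf3b-null 3. Upf2, the direct partner of UPF3B, had 0.27, the kinase Smg1 0.28, Smg5 -0.55 and the decapping cofactor Pnrc2 0.09. Of the exon junction complex, which UPF3B bridges to the NMD machinery, 8 of 10 genes were tested with a median of -0.02, which ran from -0.14 without Upf3b-null 4 to 0.07 without WT 1. Magoh, a core subunit, was at 149, 96.1, 89 and 101 CPM in WT and at 101, 47.2, 18.5 and 65.0 CPM in Upf3b-null HBCs (-0.71, adjusted p = 0.999 by edgeR), and its partner Rbm8a had 0.13. Acin1, Pnn and Sap18, peripheral components, had -0.33, -0.08 and 0.17.

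No RNA known as an NMD substrate passed in Upf3b-null HBCs. Of 38 listed, 30 were tested, 11 log2 fold changes were above 0 and 19 below, and the median was -0.08, between -0.13 and 0.0 with 1 mouse left out. Snhg12, a noncoding host of small nucleolar RNAs, was at 69.5, 70.5, 43.7 and 52.3 CPM in WT and at 111, 198, 55.4 and 73.5 CPM in Upf3b-null HBCs (0.91, unadjusted p = 0.0363, adjusted p = 0.999 by edgeR). Snhg6, another such host, had 52.1, 64.1, 45.3 and 21.6 CPM against 85.1, 56.7, 55.4 and 86.3 CPM (0.78). Both overlapped between groups. The splicing factors Srsf3, Luc7l2 and Rbm39, whose RNAs carry poison exons, had -0.07, -0.33 and 0.01, and Sat1, a polyamine acetyltransferase, had -0.09. The deposited matrices count UMIs per gene, so NMD-sensitive isoforms of these genes were not separated.

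Stress, cell cycle and respiration genes were described in the same way. Of 36 immediate early and heat shock genes 26 were tested with a median of 0.10, which was -0.24 without Upf3b-null 4, 0.23 without Upf3b-null 3 and -0.27 over 15 genes in the 5 libraries. Hspa8 had 0.08, Hspb1 -0.48, Cebpb 0.22, Zfp36l1 -0.19, Btg1 0.37 and Hspa1b 0.64. Cell cycle genes gave 12 tested of 46 and a median of 0.06, which was -0.13 without Upf3b-null 1 and 0.29 without Upf3b-null 2, with Ccnd2 at -0.16, Ccnd1 at -0.59, Stmn1 at -0.28, Cks2 at 0.52 and Cenpa at 0.81. All 66 genes of oxidative phosphorylation were tested, 51 were above 0 and the median was 0.17. The summed level of the 66 was 30411, 30159.7, 19816 and 22822 CPM in WT and 34766, 29755, 27907 and 21833 CPM in Upf3b-null HBCs, so WT 3, WT 4 and Upf3b-null 4, the libraries that stood apart, were the 3 lowest. With the library set as a term of the fit the median was 0.01, and with 1 mouse left out it ran from 0.03 without Upf3b-null 1 to 0.31 without Upf3b-null 4. Cox4i1, Cox8a, Atp5l and Uqcrh had 0.07, 0.18, 0.18 and 0.10, and Ndufs5 and Ndufa1, with the smallest p, had 0.51 and 0.47.

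**Figure D5:**
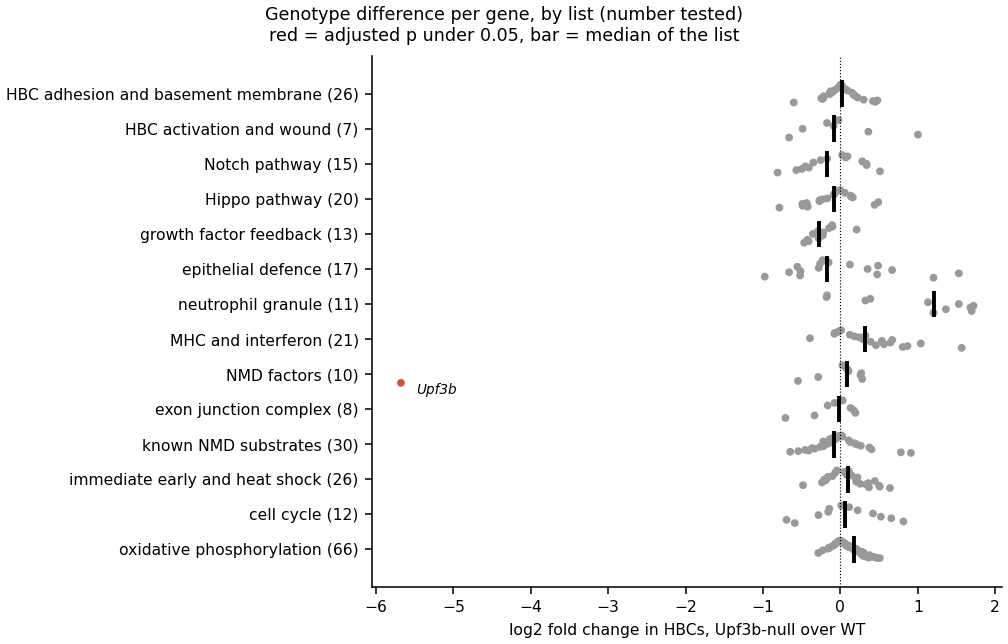
Log2 fold change in HBCs, Upf3b-null over WT, of each tested gene by list, with the number tested in parentheses; the black bar is the list's median and red marks an adjusted p under 0.05. Upf3b at -5.68 is the 1 red point, and the medians lie between -0.27 and 0.32 except for 1.20 in the neutrophil granule list.

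The genotype difference was then compared between HBCs and other epithelial classes of the same mice. Against sustentacular cells 3 of 9906 genes passed (0.0303%, adjusted p under 0.05 by edgeR with mouse as a block), namely Mup5 with a difference of log2 fold changes of 3.18, 5430402E10Rik with 4.66 and BC051076 with 3.63. Mup5, a major urinary protein of the lipocalin family, was at 2.14, 0.0, 13.1 and 233 CPM in WT HBCs and at 0.0, 8.54, 0.0 and 1524 CPM in Upf3b-null HBCs (plain CPM). Sustentacular cells of WT 4 held 158 CPM of Mup5 and those of Upf3b-null 4 held 110.4 CPM, against at most 7.82 CPM in the other 6 mice, and mOSNs of WT 4 held 1087 CPM of it. The 3 genes thus rest on Upf3b-null 4, in whose sub-cluster 4 they ranked 4, 6 and 2 by fold. None of them passed without that mouse. Nor did any pass without WT 4, where the differences were 3.15, 4.74 and 3.71 (adjusted p = 0.473, 0.107 and 0.348 by edgeR). Sustentacular cells by themselves had 1 of 8662 genes called (0.0115%), Upf3b.

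Against GBCs 1 of 7218 genes passed (0.0139%), Crisp1, which encodes a secreted cysteine-rich protein of the male reproductive tract. It had 84 UMIs in HBCs of Upf3b-null 4, 1 UMI in those of WT 3 and none in the other 6, and in GBCs 144 UMIs in WT 3 and none elsewhere. GBCs of WT 3, 21 cells, also held 4550, 9930 and 11000 plain CPM of Mup5, 5430402E10Rik and BC051076. In GBCs of any other mouse these were at most 157, 113 and 46.4 plain CPM. In sub-cluster 4 of the members they ranked 4, 6 and 2 by fold and Crisp1 ranked 10. The part of such RNA in the Crisp1 call was not tested. With zeros in most mice the fitted difference of 16.15 on the log2 scale is not a fold, and it rests on 2 libraries. DESeq2 called 0 genes in either comparison of classes, with 110.0 and 58 genes at an unadjusted p under 0.05 against sustentacular cells and GBCs.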

How the data were processed

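Single-cell libraries of RNA 3′ ends from OE of 4 WT and 4 Upf3b-null mice were analysed from UMI counts per gene and cell that the authors deposited after running Cell Ranger (version 2.0 per the labels, with a later version also listed by the study) on mm10 (GRCm38), without normalisation. The bulk RNA-seq files of the series were not used here.

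Members were chosen by keratin UMIs and by limits on sustentacular and blood genes; the members and gene lists were chosen with earlier results of these data known. Other classes were set by marker sums, among them 1553 sustentacular cells, 703 GBCs, 1219 iOSNs and 10590 mOSNs. No doublet caller was run, and an alternative left out members with at least 3 UMIs of Omp, Gap43, Gng8 and Stmn2. Libraries held 5024031 to 27673674 UMIs.

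UMIs were summed per mouse and class and tested with edgeR 4.0.16 (TMM, filterByExpr, quasi-likelihood, R 4.3.3). Genes of the rule entered the fit across all genes, and their tests are not reported. DESeq2 1.42.0 was an alternative, and the fits were tested on simulated data. With 200 genes changed by a log2 fold change of 1.5, the HBC fit recovered 15.5% by edgeR and 21.5% by DESeq2. The comparisons of classes recovered 35.5% against sustentacular cells and 12% against GBCs. A gene that did not pass is thus not shown to be unchanged. Some calls fell on genes that the simulation had left unchanged. These were 3 of 34 calls by edgeR and 4 of 47 by DESeq2 in the HBC fit. In the comparisons of classes they were 8 of 79 calls against sustentacular cells and 7 of 31 against GBCs. A gene that passed, as Crisp1 did against GBCs, is thus not shown to be changed by its adjusted p alone. Shares were compared by exact two-sided permutation over mice. Sub-clusters used Leiden clustering in scanpy 1.11.5 with igraph 0.11.9, 1500 variable genes, 20 components, 15 neighbours and a resolution of 0.6. Alternatives changed the keratin, Trp63, mitochondrial and blood limits, the depth of cells, the filter, the scaling, the tool, the replicate block, the library sets and each mouse in turn.

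Named genes were Upf3b, those with an adjusted p under 0.05, the 10 smallest p besides, up to 4 of the highest mean CPM and up to 2 of the smallest p of each list, the 25 genes with the highest lowest fold of HBCs, and 5 genes of each sub-cluster. Itgb4, Lamb3, Icam1, Ccl20, Defb1 and the signalling genes given as levels were named besides. Gas5, Snhg1 and Zfas1 were not analysed here. Of the genes this rule names, 1 is not reported here.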

Additional observations from a re-analysis of the deposited data

Results flagged for a closer look

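In 12 of 178 groups of 4 mice, 1 mouse lay far from the other 3, its gap to the nearest being over the 95% critical value of Dixon for 4 values. Chance gives about 1 in 20 such groups. Upf3b-null 4 lay above the other nulls in Reg3g (5540.0 CPM), Wfdc2 (2510.0 CPM), Ltf (2710.0 CPM) and Acin1 (150.0 CPM), and below them in Ifitm3 (778 CPM). Upf3b was at 2.13 CPM (2 UMIs) in Upf3b-null 4 and at 0 UMIs in the other nulls, whose depth allows higher levels, so that mouse is not shown to lie above them. Upf3b-null 3, with 19 members, lay above the other nulls in Isg15 (148 CPM) and H2-T23 (111 CPM). Among WT mice, WT 1 was high in Ltf (700.0 CPM), WT 2 low in Hypk (25.6 CPM) and Ccnd2 (391 CPM), and WT 4 low in Atp6v1c2 (23.4 CPM).

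The genotype difference on the log2 scale was larger in HBCs than in sustentacular cells, by the edgeR test of the difference itself, for Mup5 (3.18, adjusted p = 0.000417), 5430402E10Rik (4.66, adjusted p = 0.000417) and BC051076 (3.63, adjusted p = 0.00117). Without Upf3b-null 4 the differences were 0.41, 0.73 and -2.89 in that order, and none passed (adjusted p = 1.0 each by edgeR). None passed without WT 4 either, at 3.15, 4.74 and 3.71 (adjusted p = 0.473, 0.107 and 0.348 by edgeR). BC051076 also did not pass without WT 3, at 3.42 (adjusted p = 0.211 by edgeR). The genotype difference was larger in HBCs than in GBCs for Crisp1, with a fitted coefficient of 16.15 (adjusted p = 6.67e-07 by edgeR). That coefficient rests on UMIs of WT 3 and Upf3b-null 4 and is not a fold.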

How the results depend on the processing

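The lower HBC share of kept cells kept its direction in all 17 alternatives and had an unadjusted exact permutation p under 0.05 in 7. No alternative was adjusted, and the main result was at 0.114 after Benjamini-Hochberg adjustment of the exact permutation p. The share did not reach the unadjusted level with at least 5 keratin UMIs (-2.34 points), thinned cells (-2.29), or without members holding OSN UMIs (-2.01). With 1 mouse left out it ran from -3.85 to -2.44 (exact permutation p = 0.0571 in 6 of 8). With the replicate block it was -3.25 with p = 0.125, the smallest that the exact test allows. The replicate numbers do not pair the mice (r = -0.017 to 0.237 for the same number, 3 of 4 pairs over 0.1, 1 of 8 libraries nearest its own number), and the block left 1 gene called. With 1 mouse left out, the share of cells other than blood ran from -4.66 to -1.94 and that of the lineage from -6.23 to -2.99. Each reached an unadjusted exact permutation p under 0.05 only without Upf3b-null 4. With a mitochondrial limit of 10% the differences were -4.04 points of kept cells (exact permutation p = 0.0286), -7.18 of cells other than blood (p = 0.0857) and -8.08 of the lineage (p = 0.0571), but that limit left 413 of 2791 cells in WT 3, where the median member held 12.6% mitochondrial UMIs against 7.77% to 11.3% in the other mice. The cycling difference changed sign, from -5.23 to 2.91 with 1 mouse left out and 5.14 within library sets.

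Genes called numbered 28 without the filter (27 higher in Upf3b-null HBCs), 4 with the library set as a term, 14 in the 5 libraries alone (1 of them Krt15, a gene of the rule, so 13 besides), and 1 to 4 with 1 mouse left out (4 without Upf3b-null 4). They numbered 0 without members holding OSN UMIs, in thinned members and with a Trp63 UMI required, with 22, 20 and 32 genes at an unadjusted edgeR p under 0.05; Upf3b did not pass the filter there. Upf3b was called in the 17 alternatives that tested it. Gene fits with the library set as a term, in the 5 libraries alone and with a Trp63 UMI required were added after the data were seen. With no filter, the genotype difference was called unlike between HBCs and sustentacular cells for 8 genes and between HBCs and GBCs for 4. DESeq2 gave 0 in both, and leaving out 1 mouse gave 0 to 10.0 (10.0 without WT 1, 5 without Upf3b-null 1, 1 without Upf3b-null 4, 0 without WT 4) and 0 to 2 (2 without WT 2 or WT 4, 0 without Upf3b-null 4). BC051076 ran from -2.89 (without Upf3b-null 4) to 3.8. The cause of these shifts was not tested. Few members in Upf3b-null 2 and 3 limit the precision.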
